A study of Mus musculus with 12 samples.

Results

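The 10 genes described here encode the main carriers that move bile acids, bile lipids and drugs across the 2 faces of the hepatocyte. They were taken by name as sinusoidal uptake carriers (Slc10a1, Slco1a1, Slco1a4 and Slco1b2), canalicular export pumps (Abcb11, Abcb4 and Abcc2) and basolateral efflux carriers (Abcc3, Abcc4 and Slc51b). They were found by symbol in the annotation of an Affymetrix array, where 16 of 45101 probe sets carried 1 of these symbols and 15 of the 16 passed the filter on dim signal. All 10 genes were among the 13598 tested, each through its brightest probe set.

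Liver RNA was measured in 12 male mice, 3 in each of 4 groups. All mice were 6 to 12 weeks old, lived under 12 h of light and 12 h of dark, and gave livers at ZT14, which is 14 h after lights on. Untreated wild-type mice of the Jcl:ICR strain ate normal food. Treated wild-type Jcl:ICR mice, Clk/Clk mutant mice with the Jcl:ICR background and PPARα-null mice ate food holding 0.5% (w/w) bezafibrate, a fibrate drug that activates PPARα, for 5 days. The null mice came from a cross of the 129S4SvJae-PPARalphatm1Gonz/J line with Jcl:ICR, so strain background and genotype cannot be told apart in them. Neither mutant was measured without the drug, so a mutant's own level and its response to the drug cannot be told apart either. The study asks which liver genes under the nuclear receptor PPARα also depend on the clock protein CLOCK.

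Hepatocytes take bile acids from portal blood with the sodium-dependent carrier NTCP, made from Slc10a1, and with the sodium-independent organic anion transporting polypeptides made from the Slco genes, which also carry many drugs and hormone conjugates. They pump bile acids into the canaliculus through BSEP (Abcb11), move phosphatidylcholine there with MDR2 (Abcb4) and export conjugates such as bilirubin glucuronide through MRP2 (Abcc2). MRP3 (Abcc3), MRP4 (Abcc4) and the OSTα-OSTβ pair, whose second subunit is Slc51b, return bile acids and conjugates to blood. Uptake genes are known to be lowered and basolateral efflux genes to be raised in livers loaded with bile acids, and fibrates are known to raise Abcb4 in mice.

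All values are log2 probe set signals. The 12 arrays had medians of 5.45 to 5.50, pairs within a group correlated at 0.993 to 0.996 across probe sets, which are not independent replicates, and the filter lay at 4.87 to 4.92. A gene was called higher or lower when limma's Benjamini-Hochberg adjusted p over all 13598 genes was under 0.05 and the difference was at least 1.5-fold. Some counts are also given at an unadjusted p under 0.05, with no share of all genes at that level to set beside them. The labels number the mice but name no litter or cage, so p-values measure the spread between these mice. Ppara averaged 11.56 in untreated wild type, 10.78 in treated wild type, 9.88 in null and 10.37 in Clk/Clk mice, and Clock averaged 7.81, 8.17, 7.82 and 9.25. No source used here places those probe sets relative to the altered parts of the 2 genes, and they check neither genotype. Mean signal of 10 hepatocyte markers lay between 14.11 and 14.16 in untreated wild type, 13.69 and 13.74 in treated wild type, 13.94 and 14.05 in null and 13.81 and 13.86 in Clk/Clk mice. With the drug in wild type 2 of the 10 fell, Tat by 1.64 and Cps1 by 1.24, beside 7.77% of all genes called lower. Alb, which encodes albumin, differed by -0.02, and the median of the 10 was -0.12. In whole liver, fewer cells of a type and less RNA per cell cannot be told apart.

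Bezafibrate moved most of the transporters in wild type, with every uptake carrier lower. Of the 10 genes, 3 were called higher and 4 lower, beside 20.6% of all genes called (12.8% higher and 7.77% lower). In null against wild-type mice, both on the drug, 5 were higher and 2 lower, beside 13.4% of all genes (5.35% higher and 8.09% lower). In Clk/Clk against wild-type mice, both on the drug, 2 were higher and 1 lower, beside 9.13% of all genes (2.64% higher and 6.49% lower). The groups did not overlap for 8, 8 and 7 of the 10 genes, beside 56.3%, 48.6% and 42.3% of all genes. The 3 comparisons share the treated wild-type arrays, so their differences are not independent, and their values are given side by side only.

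**Figure D1:**
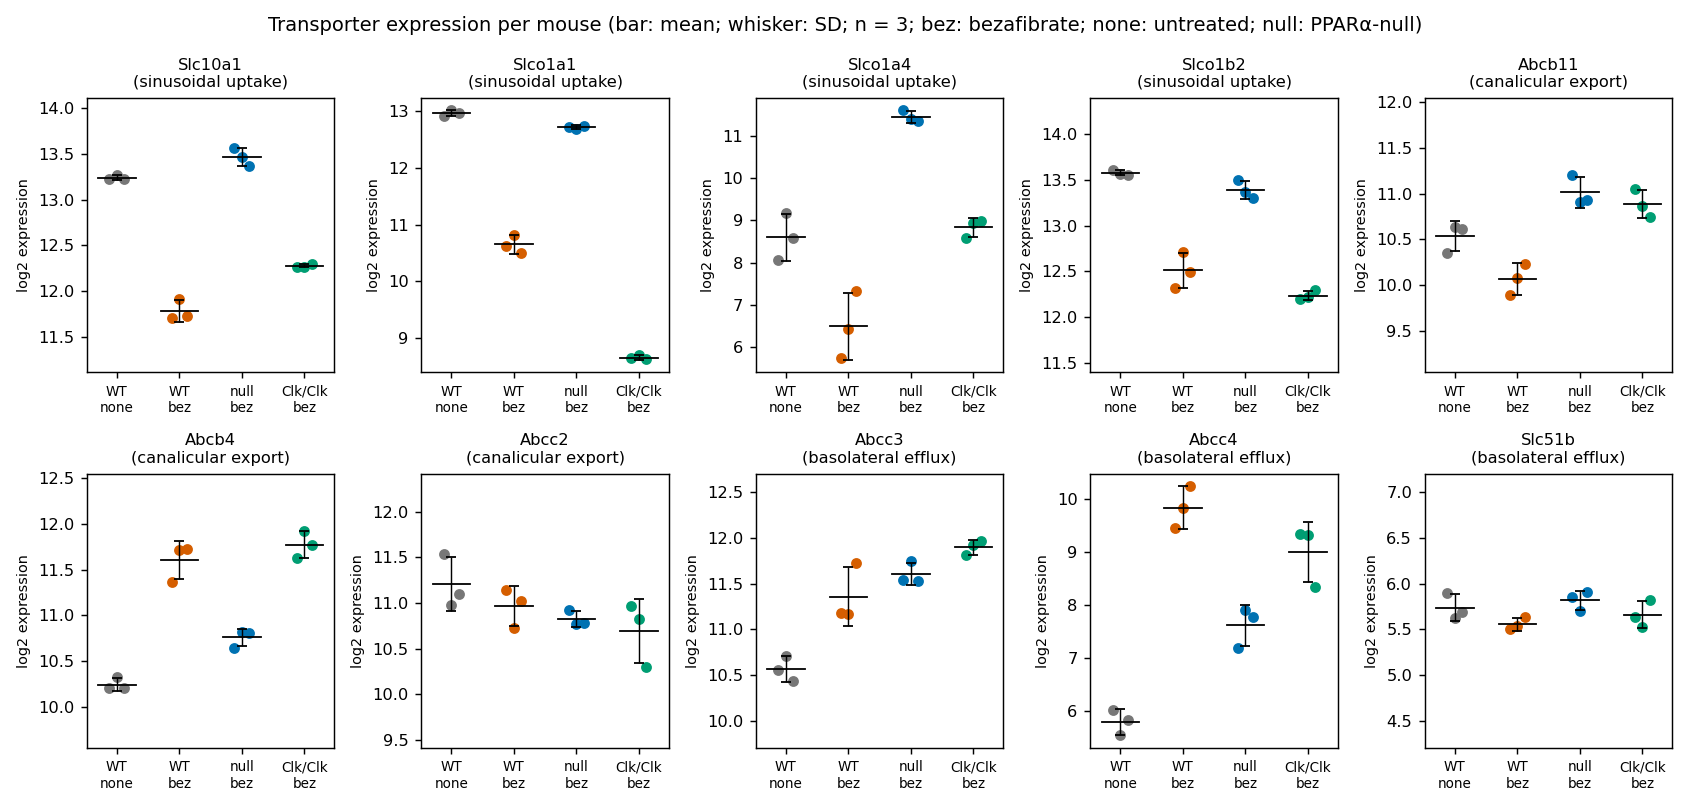
Log2 signal of the brightest probe set of each of the 10 transporters in every mouse. Each point is 1 mouse, each bar a group mean and each whisker its SD, with 3 mice in each of untreated wild type, and bezafibrate-fed wild type, PPARα-null and Clk/Clk. Slco1a1 falls to between 8.63 and 8.70 in Clk/Clk mice, and Abcc4 climbs from 5.54 to 6.01 in untreated wild type to between 9.44 and 10.23 in treated wild type.

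The uptake carriers as a set were low in treated wild type and not in null mice. All 4 fell with bezafibrate in wild type, with a median difference of -1.78 against 0.01 over all genes, and all 4 were called higher in null than in treated wild-type mice, with a median of 1.88 against 0.01. Between Clk/Clk and treated wild-type mice the set split, with 1 higher, 1 lower and 2 not called. Shares of all genes called in those comparisons were 20.6%, 13.4% and 9.13%. Slco1b2, Slco1a4 and Slco1a1 follow one another in a cluster on mouse chromosome 6, in an order of Slco1c1, Slco1b2, Gm5724, Slco1a4, Slco1a1, Gm6614, Slco1a6 and Slco1a5, yet their values across the groups differed, so their start-site windows are shown. These are RefSeq sequences of build GRCm38.p6, from 250 bases before the start to 50 after it, read along the gene's strand. Slco1a1 is on the minus strand at chr6:141946913-141947212, Slco1a4 on the minus strand at chr6:141856171-141856470 and Slco1b2 on the plus strand at chr6:141629268-141629567. Capitals mark matches to the nuclear receptor half-site AGGTCA, on either strand.

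Slco1a1: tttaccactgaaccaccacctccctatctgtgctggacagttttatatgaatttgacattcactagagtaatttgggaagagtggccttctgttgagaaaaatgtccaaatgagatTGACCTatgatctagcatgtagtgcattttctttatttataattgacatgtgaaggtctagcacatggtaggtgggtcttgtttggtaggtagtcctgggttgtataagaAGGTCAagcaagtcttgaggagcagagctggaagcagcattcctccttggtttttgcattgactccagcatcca
Slco1a4: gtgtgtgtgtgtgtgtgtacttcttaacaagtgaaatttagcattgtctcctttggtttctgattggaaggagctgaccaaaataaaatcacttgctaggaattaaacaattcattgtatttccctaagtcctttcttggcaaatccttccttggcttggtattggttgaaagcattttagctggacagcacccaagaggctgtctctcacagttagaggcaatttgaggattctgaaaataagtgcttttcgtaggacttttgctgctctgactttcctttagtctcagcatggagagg
Slco1b2: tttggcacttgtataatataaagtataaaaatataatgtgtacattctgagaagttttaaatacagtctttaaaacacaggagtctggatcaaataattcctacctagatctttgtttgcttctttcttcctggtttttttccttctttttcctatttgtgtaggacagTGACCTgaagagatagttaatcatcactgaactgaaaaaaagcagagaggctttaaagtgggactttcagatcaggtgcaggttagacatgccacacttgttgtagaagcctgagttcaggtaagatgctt

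The half-site lies at -134 and -24 from the start in Slco1a1 and at -81 in Slco1b2, counting to the match's first base. The Slco1a4 window holds no match to any motif searched. Across the 9 transporters with a window in the table used, 6 held AGGTCA, in 6 of their 11 windows, against 16.3% of 32851 windows of the same length. None held the half-site repeated directly after 1 base (direct repeat 1), a form PPARα binds, which 0.0396% of all windows hold. None held the half-site facing its reverse complement across 1 base (inverted repeat 1), a form FXR binds, which 0.00913% hold. Only exact matches were counted, and both repeats are so rare that their absence from 11 windows says nothing about these genes. Sites that differ from these letters were not searched for. A match is a run of letters in a window and not a measured site.

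Slc10a1, the sodium-dependent bile acid carrier, read 13.22, 13.27 and 13.22 in the untreated mice and 11.71, 11.91 and 11.72 in treated wild type. It read 13.56, 13.46 and 13.36 in null mice and 12.26, 12.27 and 12.29 in Clk/Clk mice. The 4 groups did not overlap, with null mice highest and treated wild type lowest. It fell by 1.46 with the drug (SE 0.0743, 2.75-fold, adjusted p = 7.05e-08) and was higher in null than in treated wild-type mice by 1.68 (adjusted p = 6.50e-08). Clk/Clk mice exceeded treated wild type by 0.49 (95% interval 0.33 to 0.66, adjusted p = 9.28e-04), which is 1.41-fold and under the fold threshold. The second probe set gave the same calls in these 3 comparisons, at -1.28, 1.75 and 0.40, where 19.3%, 12.4% and 8.60% of 28344 probe sets were called one by one.

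Slco1a1 was the transporter called in opposite directions in the 2 mutants, counting each gene by its brightest probe set. It read 12.91, 13.01 and 12.96 in untreated mice, 10.63, 10.82 and 10.50 in treated wild type, 12.72, 12.69 and 12.74 in null mice and 8.66, 8.70 and 8.63 in Clk/Clk mice. The null mice lay close to untreated wild type, while the Clk/Clk mice lay lowest of all groups. It fell by 2.31 with the drug in wild type (SE 0.0801, 4.96-fold, adjusted p = 7.62e-09). Null mice exceeded treated wild type by 2.07 (4.19-fold, adjusted p = 2.62e-08), and Clk/Clk mice differed from treated wild type by -1.99 (3.97-fold, adjusted p = 4.02e-07). Against untreated wild type the Clk/Clk value was -4.30, or 19.7-fold lower (adjusted p = 4.01e-11), and the null value was -0.24 (adjusted p = 0.0522). Its second probe set gave -2.29, 1.97 and -1.93 in the 3 main comparisons.

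Slco1a4, a carrier of organic anions and cardiac glycosides also known as a target of xenobiotic receptors, was highest in null mice. Untreated mice read 8.06, 9.16 and 8.57, treated wild type 5.74, 6.42 and 7.32, null mice 11.60, 11.39 and 11.34, and Clk/Clk mice 8.58, 8.95 and 8.98. Treated wild type lay below and null mice above every other mouse, and untreated and Clk/Clk mice overlapped. Its residual SD of 0.499 was the widest of the 10 genes. It fell by 2.10 with the drug (SE 0.346, 4.29-fold, adjusted p = 4.12e-04) and was higher than treated wild type by 4.95 in null mice (30.9-fold, adjusted p = 1.45e-06) and by 2.34 in Clk/Clk mice (5.06-fold, adjusted p = 8.58e-04). Null mice also exceeded untreated wild type, by 2.85 (7.20-fold, adjusted p = 2.95e-04). Clk/Clk mice did not differ from untreated wild type beyond the spread, at 0.24 (95% interval -0.52 to 0.996, adjusted p = 0.612).

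Slco1b2, the liver-specific organic anion carrier, read 13.61, 13.57 and 13.56 in untreated mice, 12.32, 12.71 and 12.49 in treated wild type, 13.50, 13.37 and 13.31 in null mice and 12.20, 12.21 and 12.29 in Clk/Clk mice. Clk/Clk mice were lowest, treated wild type lay just above them, and null mice lay near the untreated mice. It fell by 1.07 with the drug (SE 0.0930, 2.10-fold, adjusted p = 3.73e-06) and was higher in null than in treated wild-type mice by 0.88 (1.84-fold, adjusted p = 3.19e-05). The Clk/Clk difference of -0.27 (95% interval -0.48 to -0.07, adjusted p = 0.0512) was not called. Probe sets of this gene disagreed there. One of the 2 other bright ones gave -0.24. The other gave -0.60 and was called lower (adjusted p = 5.67e-03 by limma over the 28344 probe sets). That was opposite to its called difference of 0.98 in null mice (adjusted p = 1.28e-04). Its remaining 2 probe sets were dim, at 4.13 to 5.16, and 1 of them did not pass the filter. Probe sets of the Slco family can share signal between similar sequences.

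The canalicular pumps differed among themselves. With the drug in wild type 1 of 3 rose and none fell (median -0.24), in null against treated wild-type mice 1 was higher and 1 lower (median -0.14), and in Clk/Clk against treated wild-type mice 1 was higher (median 0.17). Of all genes, 20.6%, 13.4% and 9.13% were called in those comparisons. Abcb4, the phosphatidylcholine floppase, read 10.20, 10.32 and 10.20 in untreated mice and 11.36, 11.71 and 11.73 in treated wild type. It read 10.65, 10.82 and 10.81 in null mice and 11.63, 11.92 and 11.77 in Clk/Clk mice. Treated wild type and Clk/Clk mice overlapped at the top, untreated mice were lowest, and null mice lay between them. It rose by 1.36 with the drug in wild type (SE 0.110, 2.57-fold, adjusted p = 2.08e-06) and was lower in null than in treated wild-type mice, at -0.84 (1.80-fold, adjusted p = 1.43e-04). Clk/Clk and treated wild-type mice differed by 0.17 (95% interval -0.07 to 0.41, adjusted p = 0.275). Clk/Clk mice exceeded untreated wild type by 1.53 (2.89-fold, adjusted p = 7.55e-07). Null mice exceeded it by 0.52 (adjusted p = 7.19e-03), which is 1.43-fold and was not called.

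Abcb11, the bile salt export pump and a known target of the bile acid receptor FXR, read 10.35, 10.64 and 10.62 in untreated mice and 9.89, 10.08 and 10.23 in treated wild type. It read 11.21, 10.90 and 10.93 in null mice and 11.05, 10.87 and 10.75 in Clk/Clk mice. The 2 mutants overlapped, and both lay above every wild-type mouse. The drug difference in wild type of -0.47 (SE 0.123, adjusted p = 8.34e-03) was 1.38-fold and not called. Null mice exceeded treated wild type by 0.95 (1.93-fold, adjusted p = 1.45e-04), and Clk/Clk mice did so by 0.82 (1.77-fold, adjusted p = 9.20e-04). Against untreated wild type neither mutant was called, at 0.48 (adjusted p = 0.0180) for null and 0.35 (adjusted p = 0.0352) for Clk/Clk mice.

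Abcc2, the export pump for glucuronide and glutathione conjugates, was called in none of the 6 comparisons between the 4 groups by limma. At an unadjusted p under 0.05 it passed in 1 of the 6. It read 11.54, 10.98 and 11.10 in untreated mice, 11.15, 10.72 and 11.02 in treated wild type, 10.93, 10.77 and 10.78 in null mice and 10.96, 10.83 and 10.29 in Clk/Clk mice. The groups overlapped in the 3 main comparisons, where its differences were -0.24 (95% interval -0.65 to 0.16, adjusted p = 0.303), -0.14 (adjusted p = 0.597) and -0.27 (adjusted p = 0.312). The lowest adjusted p was 0.0412, for Clk/Clk against untreated wild type, at -0.51 or 1.42-fold.

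**Figure D2:**
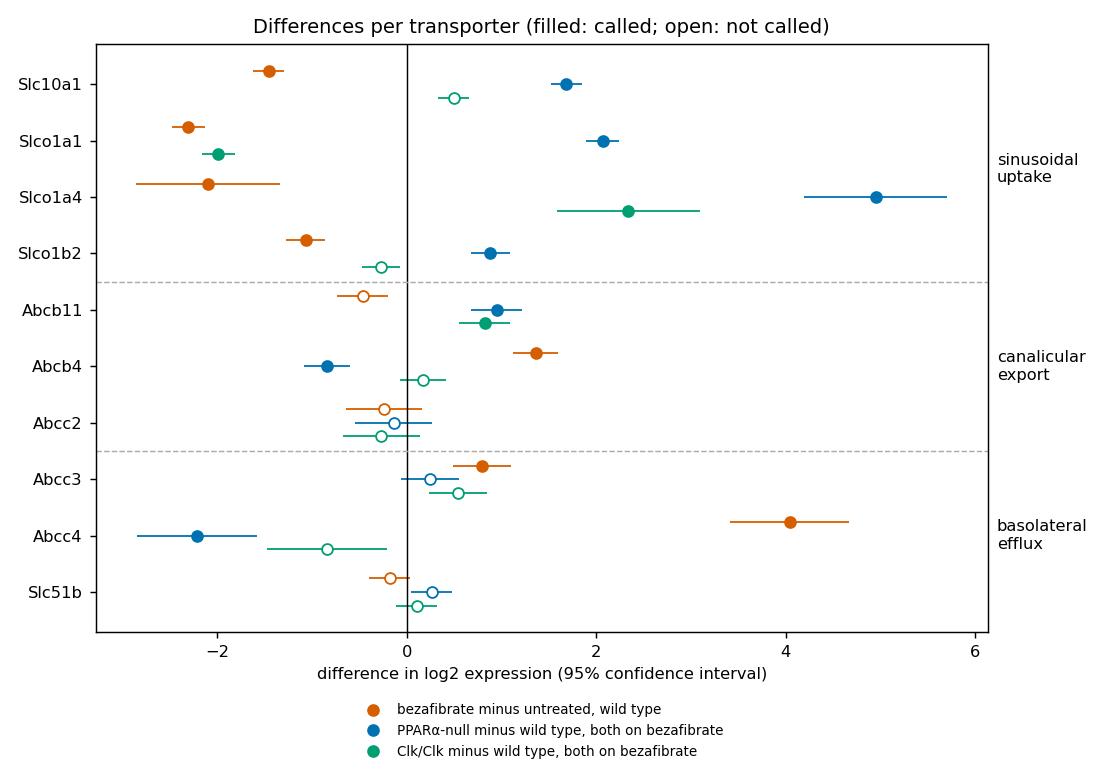
Differences on the log2 scale for the 10 transporters in the 3 main comparisons, with 95% confidence intervals from the limma fit of 12 arrays, 3 per group. Filled points were called and open points were not. All 4 uptake carriers lie below 0 for bezafibrate in wild type and above 0 for null against wild type, and Slco1a1 alone of the 10 is called lower for Clk/Clk against wild type.

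Of the basolateral efflux carriers 2 of 3 rose with the drug in wild type, with a median of 0.79. In null against treated wild-type mice 1 was lower, and in Clk/Clk against treated wild-type mice limma called 0 of 3. At an unadjusted p under 0.05 there were 2, with no share of all genes at that level given. Of all genes, 20.6%, 13.4% and 9.13% were called in those comparisons. Abcc4 had the largest drug difference of the 10 transporters, and its product MRP4 exports conjugated bile acids and cyclic nucleotides to blood. Untreated mice read 6.01, 5.54 and 5.82, treated wild type 9.44, 9.82 and 10.23, null mice 7.17, 7.89 and 7.76, and Clk/Clk mice 9.32, 9.31 and 8.33. The 4 groups did not overlap, in the order untreated, null, Clk/Clk and treated wild type. It rose by 4.04 with the drug in wild type (SE 0.288, 16.5-fold, adjusted p = 8.53e-07), a fold taken against an untreated level near the filter, where differences are understated. Null mice were lower than treated wild type, at -2.22 (4.66-fold, adjusted p = 1.43e-04), but higher than untreated wild type, by 1.82 (3.54-fold, adjusted p = 1.45e-03). Clk/Clk mice exceeded untreated wild type by 3.20 (9.18-fold, adjusted p = 4.49e-06). Their difference from treated wild type, -0.84 (95% interval -1.47 to -0.21, adjusted p = 0.0530), was not called. It was called without Clk/Clk mouse 1 (-1.01, adjusted p = 0.0484), without treated wild-type mouse 1 (-1.04, adjusted p = 0.0383), without null mouse 1 (-0.84, adjusted p = 0.0457) or with a filter at the 60th percentile (adjusted p = 0.0487).

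Abcc4 has a window on the minus strand at chr14:118706170-118706469 (RefSeq, GRCm38.p6), shown because it is the member with the only match to the E-box CACGTG, the letters that CLOCK and its partner BMAL1 bind. Capitals mark that match, whose first base is at -205, and a match at -25 to the antioxidant response element core TGACNNNGC, read on the opposite strand.

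Abcc4: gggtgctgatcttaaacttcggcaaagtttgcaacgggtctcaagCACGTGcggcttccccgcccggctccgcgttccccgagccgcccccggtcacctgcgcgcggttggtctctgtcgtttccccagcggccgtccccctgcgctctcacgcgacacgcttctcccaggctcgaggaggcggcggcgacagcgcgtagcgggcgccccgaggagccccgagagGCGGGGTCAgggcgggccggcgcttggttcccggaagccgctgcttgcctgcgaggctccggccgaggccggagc

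Another Abcc4 window, at chr14:118676882-118677181, holds no E-box and a match to the antioxidant core at -23. The E-box was in 1 of the 9 transporters with a window, which have 11 windows, beside 7.15% of all 32851 windows. The antioxidant core stood in 12.4% of all windows, and among the transporters it was also in Abcc2. Whether CLOCK acts on Abcc4 through this match was not tested. The start of Abcc3 had no window in that table and is not shown.

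Abcc3, which exports glucuronides and bile acids to blood, was higher than untreated wild type in all 3 treated groups. It read 10.55, 10.71 and 10.44 in untreated mice, 11.18, 11.17 and 11.73 in treated wild type, 11.55, 11.75 and 11.53 in null mice and 11.81, 11.92 and 11.97 in Clk/Clk mice. No treated mouse overlapped the untreated ones. The differences from untreated wild type were 0.79 (SE 0.140, 1.73-fold, adjusted p = 6.85e-04) in wild type, 1.04 (2.06-fold, adjusted p = 5.55e-04) in null and 1.33 (2.52-fold, adjusted p = 1.47e-05) in Clk/Clk mice. Null mice differed from treated wild type by 0.25 (95% interval -0.06 to 0.56, adjusted p = 0.197). Clk/Clk mice differed from treated wild type by 0.54 (adjusted p = 0.0164), which is 1.46-fold. This passed the fold threshold without treated wild-type mouse 3 (0.73), without Clk/Clk mouse 1 (0.59) or with arrays centred on their medians (0.60).

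Slc51b, the OSTβ subunit, was near the filter level in every mouse, from 5.50 to 5.90, and was called in no comparison. Its means were 5.74, 5.56, 5.82 and 5.66 in untreated wild type, treated wild type, null and Clk/Clk mice, with a drug difference of -0.18 (95% interval -0.40 to 0.04, adjusted p = 0.157). It differed from treated wild type by 0.26 (adjusted p = 0.0594) in null and 0.10 (adjusted p = 0.471) in Clk/Clk mice. At an unadjusted p under 0.05 it passed in 1 of the 6. The partner subunit Slc51a read 3.69 to 4.03 and did not pass the filter.

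A further 3 comparisons do not set treated wild type against another group. Null mice on the drug against untreated wild type had 3 members higher and 0 lower, beside 6.65% of all genes called (3.96% higher and 2.69% lower), and these were Slco1a4, Abcc3 and Abcc4. Clk/Clk mice on the drug against untreated wild type had 3 higher (Abcb4, Abcc3 and Abcc4) and 3 lower (Slc10a1, Slco1a1 and Slco1b2), beside 19.5% of all genes (10.6% higher and 8.82% lower). There Slc10a1 differed by -0.96 (1.95-fold, adjusted p = 1.35e-06) and Slco1b2 by -1.34 (2.54-fold, adjusted p = 5.91e-07). Clk/Clk against null mice had 2 higher (Abcb4 and Abcc4) and 4 lower, which were the 4 uptake carriers, beside 15.2% of all genes (7.43% higher and 7.78% lower). The groups did not overlap for 9, 8 and 7 of the 10 transporters in these comparisons, beside 39.4%, 55.2% and 50.9% of all genes. In that comparison Slc10a1 differed by -1.19, Slco1a1 by -4.06, Slco1a4 by -2.61 and Slco1b2 by -1.16, with adjusted p between 1.32e-10 and 1.28e-04. Abcb4 was higher by 1.02 (2.02-fold, adjusted p = 2.64e-05) and Abcc4 by 1.38 (2.60-fold, adjusted p = 2.94e-03) in Clk/Clk than in null mice, while Abcb11 differed by -0.12 (95% interval -0.40 to 0.15, adjusted p = 0.473) and Abcc3 by 0.29 (adjusted p = 0.127).

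Averages per transport step set the null mice apart for uptake and efflux, while treated wild type and Clk/Clk mice overlapped in all 3 steps. The mean difference of the 4 uptake carriers from the untreated wild-type mean was -1.99, -1.63 and -1.59 in treated wild type, 0.75, 0.64 and 0.60 in null mice and -1.67, -1.56 and -1.55 in Clk/Clk mice. The 3 efflux carriers averaged 1.34, 1.48 and 1.84 in treated wild type, 0.83, 1.08 and 1.04 in null and 1.56, 1.55 and 1.34 in Clk/Clk mice. The 3 canalicular pumps stayed nearer to 0, at 0.14, 0.18 and 0.33, at 0.27, 0.17 and 0.18, and at 0.55, 0.55 and 0.28. Among the treated mice, uptake was above the untreated mean in the null group only, while efflux was above it in all 9. The uptake average of null mice rests on Slco1a4, at 2.85 from untreated wild type, since the other 3 carriers differed by -0.24 to 0.22. Their lower efflux average than in treated wild type rests on Abcc4, at -2.22. Abcc3 and Slc51b went the other way, at 0.25 and 0.26 from treated wild type, neither called. These averages mix genes that moved differently, as Slco1a1 and Slco1a4 did in Clk/Clk mice, and carry no test.

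**Figure D3:**
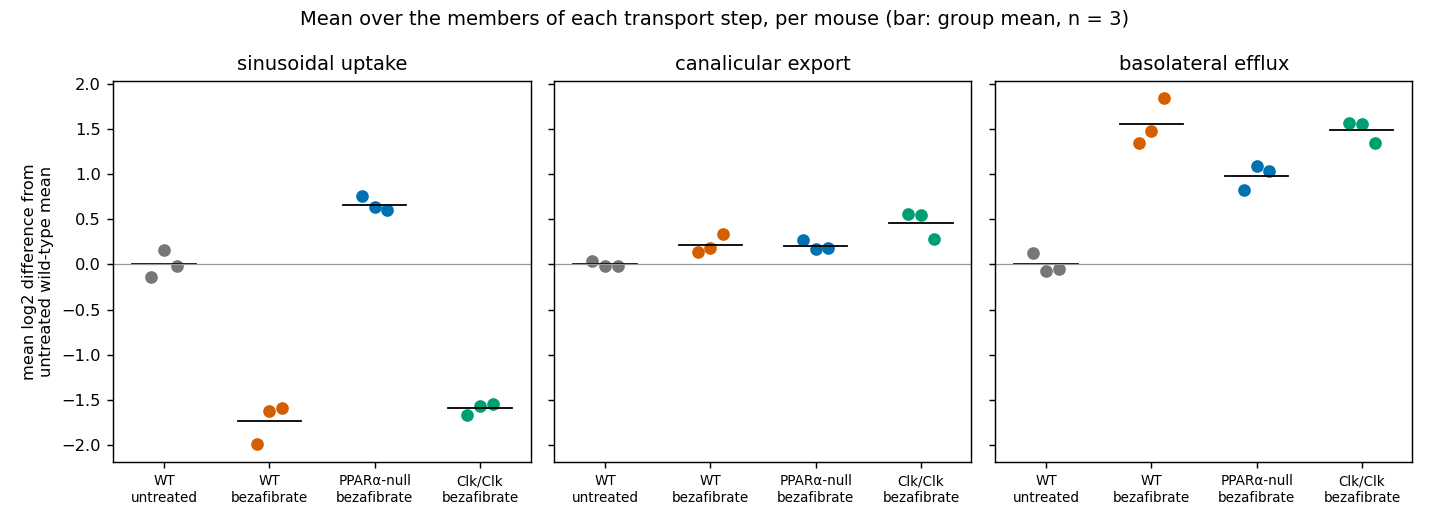
Mean log2 difference from the untreated wild-type mean over the 4 uptake, 3 canalicular and 3 efflux genes. Each point is 1 mouse and each short line the mean of 3 mice in a group. The uptake values of treated wild type and Clk/Clk mice lie between -1.99 and -1.55, and those of null mice between 0.60 and 0.75.

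The genes nearest to a transporter over the 12 mice were picked from all genes tested in these same arrays. Closeness is therefore no result by itself, and no background distance is given. Likeness was the root mean square difference of the log2 values after each gene's mean was removed, given for the 7 members whose group means spanned at least 1, with no test. Nrep (0.238) and Esr1 (0.256), the estrogen receptor, were nearest to Slco1a1, and Nrep differed from untreated wild type by -2.37, -0.21 and -4.54 in treated wild type, null and Clk/Clk mice. The nearest other transporter to Slco1a1, Slco1b2, was far away at 1.20. Hgfac (0.150) was nearest to Slc10a1, Iyd (0.0951) to Slco1b2, Smagp (0.116) to Abcb4, Hacd1 (0.164) to Abcc3 and Gadd45b (0.397), a stress-response gene, to Abcc4. Acot3 (0.440) was next nearest to Abcc4. Slco1a4 had no close match, since its nearest gene, Oat, lay at 0.952.

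**Figure D4:**
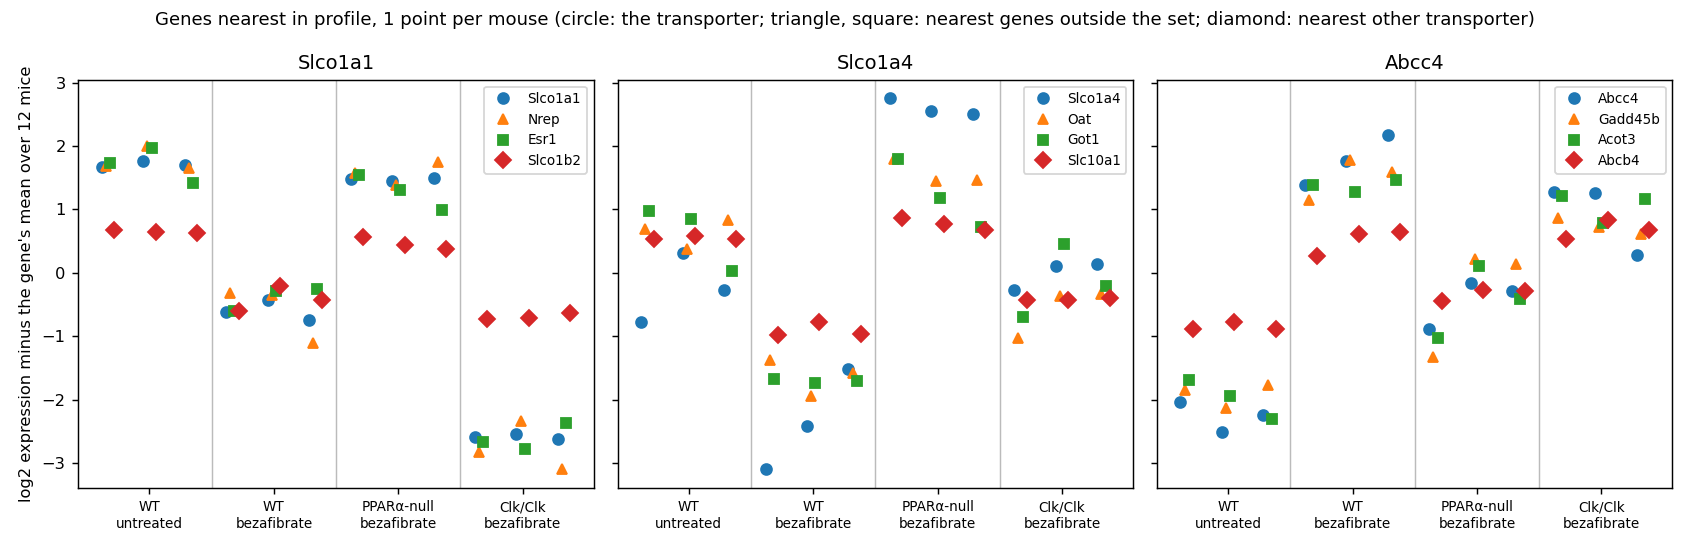
Log2 values of Slco1a1, Slco1a4 and Abcc4 and, for each, the 2 nearest genes outside the set and the nearest other transporter, over the 12 mice, after each gene's own mean was removed. Points are mice in their 4 groups. Nrep and Esr1 follow Slco1a1 through all groups, with root mean square differences of 0.238 and 0.256.

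A list of 14 other genes tied to uptake, of which 10 were tested, had 2 called higher and 4 lower with the drug in wild type. Of all genes, 12.8% were higher and 7.77% lower, and the median was 0.16 against 0.01 over all genes. The list includes Ephx1 and Slc27a5, whose products act as enzymes, so its counts are not of carriers alone. Slc22a5, the carnitine carrier, rose by 2.87, and Ephx1, an epoxide hydrolase, rose by 1.38. Slc22a7, an organic anion carrier, fell by 2.72, Slco2b1 by 1.58, Slc27a5, which activates bile acids for conjugation, by 0.93, and the prostaglandin carrier Slco2a1 by 0.78. In null against treated wild-type mice 3 were higher and 1 lower, beside 13.4% of all genes called. Slco2b1 was higher by 1.74 (adjusted p = 3.24e-07), Slc27a5 by 0.66 and Slc22a7 by 0.85 (adjusted p = 0.0406, with overlapping groups), and Slc22a5 was lower at -1.67. In Clk/Clk against treated wild-type mice limma called 0 of 10, beside 9.13% of all genes, and Slco2b1 differed by 0.11 (adjusted p = 0.419). At an unadjusted p under 0.05 there were 3 of the 10, with no share of all genes at that level given.

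Among 9 other canalicular transporters, 2 rose and 1 fell with the drug in wild type, beside 20.6% of all genes called, with a median of -0.38. In null against treated wild-type mice 1 was higher, beside 13.4%, and in Clk/Clk against treated wild-type mice 1 was higher and 1 lower, beside 9.13%. The drug pump Abcb1a rose by 1.87 (adjusted p = 5.35e-05) from an untreated level near the filter, 5.26 to 5.96, and Abcg2 by 0.77 (adjusted p = 7.49e-04), and the phospholipid flippase Atp8b1 fell by 0.65. The sterol pump subunits Abcg5 and Abcg8 differed by -0.39 (adjusted p = 0.134) and -0.52 (adjusted p = 0.0198), neither called. Abcb1b was higher in null than in treated wild-type mice by 2.85 (adjusted p = 1.90e-04), with a treated wild-type mean of 4.39 that lay under the filter level. In Clk/Clk against treated wild-type mice Abcg8 was higher by 0.82 (adjusted p = 4.43e-03) and Abcb1a lower at -1.02 (adjusted p = 8.96e-03), while Abcg5 differed by 0.23 (adjusted p = 0.422). Of 6 other basolateral efflux genes tested, 1 rose and 2 fell with the drug, beside 20.6% of all genes called, with a median of -0.14. Abcc6 fell by 1.08 and was higher in null than in treated wild-type mice by 1.32 (adjusted p = 4.24e-06). Abcc9 fell by 0.71 (adjusted p = 3.59e-03) and encodes a potassium channel subunit, so the 2 that fell are not both efflux carriers. Abcc1 rose by 0.69 from a mean of 4.83, under the filter level, and was lower in null and in Clk/Clk than in treated wild-type mice, at -0.64 and -0.60.

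Of 12 genes that anchor or move transporters at the membrane, 2 rose and 1 fell with the drug in wild type, beside 20.6% of all genes called, with a median of 0.03. Myo5b, the motor that recycles canalicular pumps to the membrane, rose by 1.496 (adjusted p = 1.70e-05) and was lower in null than in treated wild-type mice at -0.92. Msn, which encodes moesin, rose by 0.67 (adjusted p = 0.0177) and was lower in Clk/Clk than in treated wild-type mice at -0.76 (adjusted p = 0.0179). The scaffold gene Pdzk1 was higher in null than in treated wild-type mice by 0.76 (adjusted p = 5.66e-04). The scaffold Slc9a3r1 fell by 0.89 (adjusted p = 2.99e-04), was higher in null than in treated wild-type mice by 0.73 and lower in Clk/Clk than in treated wild-type mice at -1.08 (adjusted p = 4.11e-04). That gene, like Slco1a1, was called in opposite directions in the 2 mutants.

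Of 18 genes tested for receptors and factors known to control these transporters, 1 rose and 9 fell with the drug in wild type, beside 12.8% of all genes higher and 7.77% lower, with a median of -0.61 against 0.01 over all genes. Nr1h4, which encodes FXR, fell by 0.66 (adjusted p = 4.65e-05), Hnf4a by 0.69 (adjusted p = 7.30e-05), Cebpa by 1.21, Foxa3 by 1.37 and the bile acid feedback receptor Fgfr4 by 1.59. Nfe2l2, which encodes NRF2, rose by 1.53 (adjusted p = 2.77e-05). The FXR target and repressor Nr0b2 differed by -0.43 (adjusted p = 0.195), and the xenobiotic receptors Nr1i2 and Nr1i3 by -0.08 (adjusted p = 0.533) and 0.04 (adjusted p = 0.850).

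In null against treated wild-type mice 4 of these 18 were higher and 2 lower, beside 5.35% and 8.09% of all genes, with a median of 0.38. Fgfr4 was higher by 1.78, Onecut1 by 1.27 and Cebpa by 0.93, and Nfe2l2 was lower at -0.92 (adjusted p = 1.88e-03) and Ppara at -0.90 (adjusted p = 5.74e-04). Ppara is the gene altered in the null mice, so its call cannot be told apart from the genotype itself. In Clk/Clk against treated wild-type mice 2 were higher and 2 lower, beside 2.64% and 6.49% of all genes, with a median of 0.09. Fgfr4 was higher by 0.93 and Ahr by 0.63, and Nfe2l2 was lower at -0.89 (adjusted p = 3.97e-03) and Onecut1 at -0.76 (adjusted p = 0.0326). Onecut1, too, was on opposite sides of treated wild type in the 2 mutants. Nr1h4 differed by 0.37 and 0.53 in the 2 comparisons, neither called, and Nr1i3 by 0.44 and 0.50, neither called.

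Markers of other liver cells were measured beside these results. Abcc3, Abcc4 and Slc51b are also found in bile duct cells, for which 6 of 11 listed markers were tested and their mean per mouse was 5.51 to 5.89 in untreated wild type, 6.08 to 6.18 in treated wild type, 5.66 to 6.00 in null and 5.95 to 6.08 in Clk/Clk mice. Krt23 rose by 4.09 (adjusted p = 4.98e-08 by limma) and Sox9 by 0.82 with the drug in wild type, and Slc10a2 fell by 1.86 (adjusted p = 0.0207). So 2 of the 6 rose and 1 fell, beside 12.8% of all genes higher and 7.77% lower, with a median of 0.08. Krt19 averaged 5.85 and 5.84 and Epcam 6.03 and 5.72 in untreated and treated wild type. Krt7 and Cftr were under the filter. The mean of 12 macrophage markers was 8.47 to 8.97 in treated wild type and 8.07 to 8.37 in Clk/Clk mice. Of these 12, 3 were called lower in Clk/Clk than in treated wild-type mice, beside 6.49% of all genes. The median difference of the 12 was -0.49 against 0.02 over all genes. Limma gave 9 of the 12 an unadjusted p under 0.05, with no share of all genes at that level to set beside it. With the drug in wild type 3 of 10 sinusoidal endothelial markers fell, beside 7.77% of all genes. Their means were 8.52 to 8.56 in untreated and 8.12 to 8.44 in treated mice. Stellate markers fell in 3 of 10 cases, beside the same 7.77%, with means of 8.80 to 8.94 and 8.51 to 8.60. The part of any of these in the transporter values was not tested.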

How the data were processed

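Livers of 12 mice, 3 per group, were measured on Affymetrix arrays. The deposited values are log2 signals per probe set, made with RMA per the submitters' processing notes, which give no version. RMA subtracts background, puts arrays on 1 distribution and combines the probes of a set. It compresses differences of dim genes and hides a change shared by all genes. All 12 value columns were used, and no array date or batch is given.

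Of 45037 probe sets other than controls, 34945 carried exactly 1 symbol, 932 several and 9160 none. Symbols were checked against a reference table (GRCm38.p6; 34741 matched, 0 changed). Probe sets were kept if 3 or more arrays had them at or above the array's 40th percentile, and the brightest stood for each of 13598 genes. One linear model over all 12 arrays, with 4 group means and 8 residual degrees of freedom, was fitted by limma (version 3.58.1, R 4.3.3) with moderated variances, and the steps were tested on simulated data. Calls needed a Benjamini-Hochberg adjusted p under 0.05 over all genes and a 1.5-fold difference. The number of mice, 3 in each group, limits the precision.

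The members, the other gene lists and the motifs were chosen with earlier results of these data known. All 10 members are named. From each other list, up to 5 called genes per main comparison with the smallest adjusted p could be named, plus always Nr1h4, Nr0b2, Nr1i2, Nr1i3, Hnf4a, Nfe2l2, Slc51a, Abcg2, Abcg5, Abcg8 and Slco2b1. Some listed items are not reported here. Alternatives varied the filter, the probe set, the normalization, the spread model, the samples, the thresholds and a replicate block.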

Additional observations from a re-analysis of the deposited data

Results flagged for a closer look

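Slco1a1 differed between the 2 mutants. Both were set against treated wild type, and the null mice were higher by 2.07 while the Clk/Clk mice were at -1.99, each called. The test of the difference itself, Clk/Clk minus null on bezafibrate, gave -4.06 (SE 0.0801, adjusted p = 1.32e-10 by limma over 13598 genes). All 3 Clk/Clk mice lay below, and all 3 null mice above, every treated wild-type mouse. Groups of 3 mice were not tested for single mice far from the others.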

How the results depend on the processing

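The count of called transporters was 7, 7, 3, 3, 6 and 6 of 10 for the drug in wild type, null against treated wild type, Clk/Clk against treated wild type, null against untreated, Clk/Clk against untreated, and Clk/Clk against null mice. At 2-fold or more it was 6, 4, 2, 3, 5 and 6, the largest change being 7 to 4 for null against treated wild type. With the adjusted p alone it became 5 for Clk/Clk against treated wild type and 5 for null against untreated. The count also gained Abcb11 for the drug in wild type, and Abcb11 and Abcc2 for Clk/Clk against untreated mice. Leaving out 1 mouse at a time gave 3 to 5 for Clk/Clk against treated wild type, 5 without Clk/Clk mouse 1, and 6 to 7 for Clk/Clk against untreated. It left the other 4 counts at 7, 7, 3 and 6. No share of all genes called under these other rules is given here, so these counts have none to be set against. With both thresholds kept, of 1368 values of single transporters under the other settings, 1356 kept their direction and side of the threshold, 0 lost a call, 9 gained one and 3 changed sign. The 3 were never called. Slco1a4 in Clk/Clk against untreated mice ran from -0.0299 (without untreated mouse 1) to 0.520 as mice were left out, Slc51b from -0.156 to 0.0063 (without untreated mouse 1), and Abcc2 in Clk/Clk against null mice from -0.265 to 0.0700 (without Clk/Clk mouse 3). Abcc2 also gained a call in Clk/Clk against untreated mice without untreated mouse 2 (-0.62) or Clk/Clk mouse 1 (-0.64). The cause was not tested. Abcc2 has no value with suffixed probe sets left out, nor Slc51b with the filter at the 60th percentile. Other scalings moved the median of all genes by at most 0.0615. Correlations of the 18 same-numbered pairs of mice ran from -0.0924 to 0.125 with 3 over 0.1. No other pairs were set beside them, so they cannot decide whether the replicate numbers pair the mice. A replicate block gave 7, 7, 3, 3, 6 and 6. Slc51b, Slc51a, Abcc4 and Abcb1a in untreated mice and Abcb1b in treated wild type were near background, where differences are understated.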
